A study of Homo sapiens with 6 samples.

Results

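The genes described here encode the protein subunits of the cytosolic ribosome and of the mitochondrial ribosome, measured by RNA sequencing in MDA-MB-231, an established human line of triple-negative breast cancer with a wild-type genotype per the labels. In 3 cultures the cells had received siRNA-1 against ERBBride, and 3 control cultures had received a control siRNA (siCTRL). The labels call each trio biological replicates and give no time of harvest, so the p-values below measure the spread between these samples. Members were the protein-coding genes with a standard symbol of a cytosolic protein (RPL, RPS, RPLP or RPSA) or of a mitochondrial one (MRPL or MRPS), with the letter L read as the large and S as the small subunit. There were 162 members among the 20042 genes of the table. Of these, 84 were cytosolic (52 large, 32 small subunit) and 78 were mitochondrial (49 large, 29 small subunit). The count filter kept 158 of them for testing, 81 cytosolic and 77 mitochondrial. The other 4 were RPL10L, RPL3L, RPL36A and MRPS24, whose counts are given further on or lay between 0 and 20 in every library.

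The cytosolic ribosome translates the messages of the nucleus. It is assembled in the nucleolus from ribosomal RNA and proteins made in near-equal amounts. Most messages for its proteins begin with a 5′ terminal pyrimidine tract (a TOP sequence), a C followed by more pyrimidines, through which the kinase mTOR and the RNA-binding protein LARP1 control their translation and stability. The mitochondrial ribosome translates the few messages of the mitochondrial genome, all for subunits of the respiratory chain and ATP synthase. Its proteins are encoded in the nucleus and imported, and their messages are not classed as a group with TOP messages.

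Total counts per library ran from 14153969 to 15014434 in siRNA-1 and from 12813706 to 14847527 in siCTRL cultures, so that the floor of 3 counts was at most 0.233 CPM, the counts scaled to a common library total. ERBBride itself was not analysed here, so the knockdown was not checked. Of 4 markers known to be high in this line, VIM had 23519 to 25632 counts in siRNA-1 and 34513 to 37461 in siCTRL libraries, CD44 had 12016 to 13196 in siRNA-1 and 16199 to 22135 in siCTRL libraries, EGFR had 4914 to 5629 in siRNA-1 and 5979 to 6617 in siCTRL libraries, and ZEB1 had 1002 to 1251 in siRNA-1 and 1120 to 1349 in siCTRL libraries; all but ZEB1 were called lower. Of 4 markers known to be low, ESR1 had at most 3 counts and PGR 0. CDH1 had 6 to 8 counts in siRNA-1 and 22 to 40 in siCTRL libraries and EPCAM 76 to 80 in siRNA-1 and 203 to 234 in siCTRL libraries, both called lower, so these epithelial genes were not absent. Of the markers of blood and endothelial cells, CD3E and CDH5 were at 0 in every library and PTPRC, ITGAM and VWF had at most 13 counts. PECAM1 and KDR, of endothelium, had 54 to 82 counts in siRNA-1 and 89 to 144 in siCTRL libraries, and the part of such cells in the results was not tested. siCTRL 2 stood apart from the other controls: the chi-square per degree of freedom between its counts and theirs was 10.8 and 10.9, against 2.23 between siCTRL 1 and siCTRL 3 and 2.08 to 2.34 among siRNA-1 libraries. Results are therefore given with and without it. In bulk RNA, fewer cells of a type and less RNA per cell cannot be told apart.

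The start of the message is shown for 8 members because it differs between the cytosolic and mitochondrial genes. Each line gives 30 bases of the gene's strand around the annotated start, from RefSeq (GRCh38.p14), with the pyrimidine run in capitals where one of at least 5 bases that opens with C began within 5 bases of the start. The first 5 are cytosolic, the last 3 mitochondrial.
RPL14, chr3:40457324-40457353, plus strand: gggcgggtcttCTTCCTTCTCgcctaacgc
RPS12, chr6:132814554-132814583, plus strand: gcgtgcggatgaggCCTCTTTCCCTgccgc
RPLP2, chr11:809952-809981, plus strand: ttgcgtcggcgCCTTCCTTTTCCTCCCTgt
RPL38, chr17:74203663-74203692, plus strand: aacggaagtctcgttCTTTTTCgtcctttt
RPL27, chr17:42998404-42998433, plus strand: ccggggtgaaaggttagcggaagtgtcctt
MRPS27, chr5:72320226-72320255, minus strand: aacccgttggctgttCCTTTTggtacgctc
MRPL49, chr11:65122168-65122197, plus strand: gctgcgtgtcacgtcactgctgagcgaccg
MRPS17, chr7:55951862-55951891, plus strand: gtacggcgtgacgccatcccgctgcgaccg

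Such a run was found in 54 of the 67 cytosolic members with a RefSeq entry (80.6%) and in 16 of 69 mitochondrial members (23.2%), against 3016 of 10135 tested genes (29.8%). Among 17 non-ribosomal messages known for a TOP sequence, 10 of the 11 with an entry held one. Among cytosolic members it was in 12 of 13 that fell, in 8 of 14 that rose and in 33 of 38 that were not called. Of the windows shown, the longest run is that of RPLP2 (17 bases), which rose, followed by RPS12 (11 bases) and RPL14 (10 bases), which fell.

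Cytosolic ribosomal protein messages stayed close to their control level in siRNA-1 cultures. Of 81 tested, 18 rose and 14 fell (edgeR quasi-likelihood test, Benjamini-Hochberg adjusted over all 12440 genes tested, threshold 0.05), which is 39.5% called against 62.5% of all genes, of which 31.5% were higher and 31.0% lower. In 73 of them (90.1%) the change was under 1.25-fold, as it was for 46.6% of all genes, and in 0 did it reach 2-fold, the size reached by 10.1% of all genes. The median log2 fold change was 0.03 and its SD over members 0.21, against 0.01 and 0.65 over all genes tested. Restricting both to abundant genes, whose log2 CPM averaged 8 or more, gave an SD of 0.19 for 53 cytosolic members and 0.52 for 714 genes, with 39.6% and 70.2% called.

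Mitochondrial ribosomal protein messages spread further. Of 77 tested, 23 rose and 18 fell (53.2% called, against 62.5% of all genes). Their median log2 fold change was 0.09 and their SD 0.53, against an SD of 0.65 over all genes tested. Changes of at least 2-fold were called in 3 members (3.9%, against 10.1% of all genes), the falls of MRPS17, MRPL49 and MRPL45. The 2 groups of cultures did not overlap in 45 of the 77 mitochondrial members (58.4%) and in 37 of the 81 cytosolic ones (45.7%), against 67.6% of all genes tested. At matched levels, a mean log2 CPM of 4 to 8, 55.7% of 70 mitochondrial members and 69.1% of 7824 genes were called.

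By subunit, 12 of 49 cytosolic large-subunit members rose and 8 fell, with a median log2 fold change of 0.05, and 6 of 32 small-subunit members rose and 6 fell, with a median of -0.03. In mitochondria 17 of 49 large-subunit members rose and 10 fell (median 0.10), and 6 of 28 small-subunit members rose and 8 fell (median 0.08). Shares higher and lower were 24.5% and 16.3% for cytosolic large and 18.8% and 18.8% for cytosolic small-subunit members. For mitochondrial members they were 34.7% and 20.4% (large) and 21.4% and 28.6% (small). Of all genes tested, 31.5% were higher and 31.0% lower. The subunit counts were small and moved with single libraries. Fewer of all genes were also called without any 1 library other than siCTRL 2, as given further on. Without any 1 library other than siCTRL 2, 1 to 3 cytosolic small-subunit members were lower, and their median was 0.03 without siCTRL 1 and 0.01 without siCTRL 3. Without siRNA-1 1, 2 cytosolic small-subunit, 10 mitochondrial large-subunit and 3 mitochondrial small-subunit members were higher, and without siRNA-1 2, 3 mitochondrial small-subunit members were. Without siCTRL 2, 14 cytosolic large-subunit and 12 small-subunit members were lower (28.0% and 37.5%, against 34.3% of all genes). Counting MRPS18A and MRPS30 as large and leaving out MRPS36, after where these proteins sit in the ribosome, gave 17 higher and 11 lower of 51 large-subunit members and 6 higher and 7 lower of 25 small-subunit members.

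**Figure D1:**
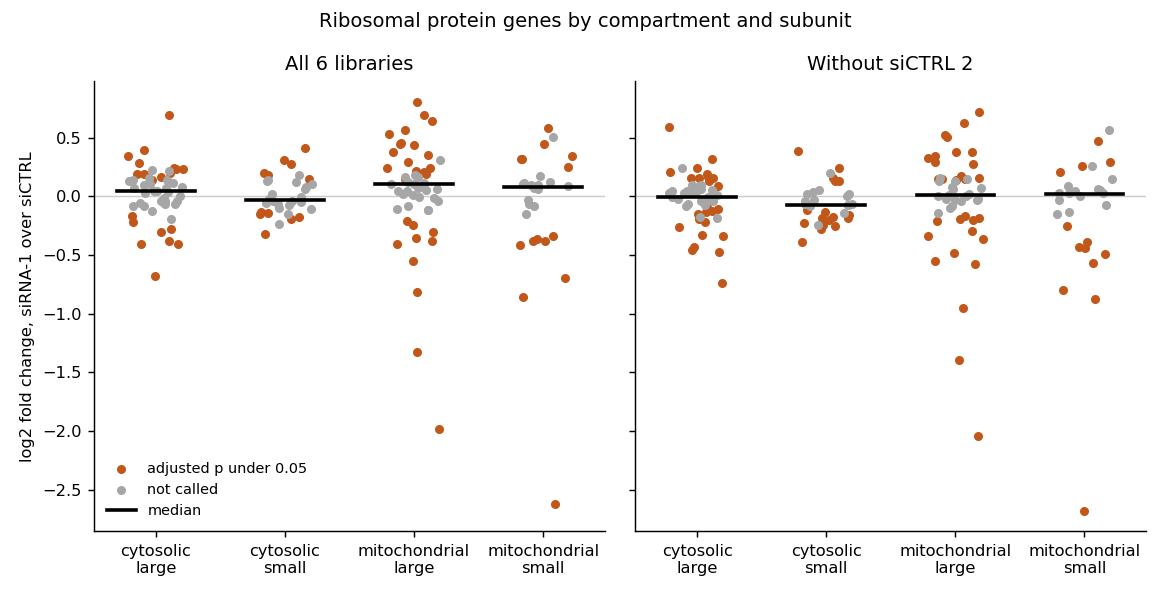
Each point is 1 ribosomal protein gene, placed by its log2 fold change of siRNA-1 over siCTRL (vertical axis) and by compartment and subunit (horizontal axis, points spread sideways for visibility), with all 6 libraries on the left and without siCTRL 2 on the right. Orange points passed the adjusted threshold and black bars are medians. Cytosolic members lie between -0.68 and 0.69 with all libraries, while MRPS17, MRPL49 and MRPL45 lie below -1.

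Calls among the smaller changes moved with single libraries. Without siRNA-1 1, 11 cytosolic members were higher and 11 lower, and 13 mitochondrial members were higher and 16 lower. Of all genes, 3435 were then higher and 3413 lower, against 3921 and 3851 with all libraries. Without any 1 of siRNA-1 2, siRNA-1 3, siCTRL 1 or siCTRL 3, 14 or 15 cytosolic members were higher and 8 or 9 lower. In those fits 3424 to 3623 of all genes were higher and 3424 to 3718 lower, so fewer calls were not particular to members. siCTRL 2 moved the direction as well. It was the lowest of the 3 controls for 137 of the 158 members tested (86.7%), against 41.0% of all genes, and lay 0.17 below the mean of the other controls on the log2(CPM + 1) scale at the median. The deepest of these deviations were in RPS27L (-0.65), MRPL41 (-0.60) and RPL41 (-0.55). Without siCTRL 2, 16 cytosolic members were higher and 26 lower (51.2% of 82 tested, against 68.7% of all genes, 34.5% higher and 34.3% lower), with a median of -0.04. The 14 members lower with all libraries were all among these 26, and 12 more joined them, among them RPL5, RPL13A, RPLP1 and RPS27L. Of the 18 higher ones 16 kept their call, and RPL8 and RPS28 did not.

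For mitochondrial members, leaving out siCTRL 2 gave 20 higher and 23 lower of 77, with a median of 0.01. All 18 falls were kept and MRPL24, MRPL40, MRPL48, MRPL51 and MRPS23 were added. Of the 23 rises 20 were kept, and MRPL32, MRPS18C and MRPS25 were not. Across members the deviation of siCTRL 2 went weakly with transcript length, lower in shorter transcripts, with a Spearman coefficient of 0.28 over 81 cytosolic and 0.31 over 77 mitochondrial members that share these libraries. The part of siCTRL 2's RNA quality in this was not tested.

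**Figure D2:**
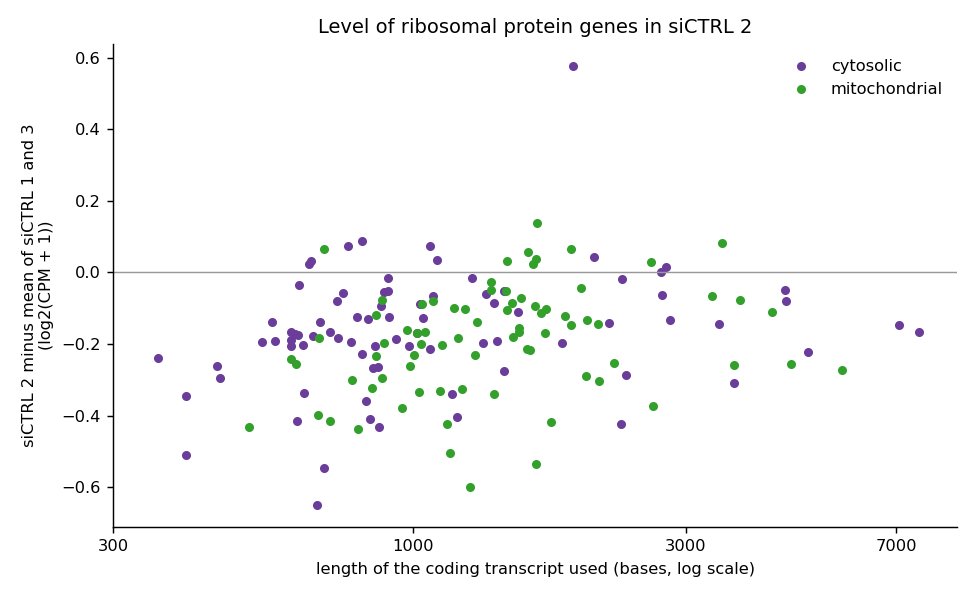
Each point is 1 tested ribosomal protein gene; the vertical axis is the log2(CPM + 1) level of siCTRL 2 minus the mean of siCTRL 1 and 3, and the horizontal axis the length of the coding transcript used, in bases on a log scale. Most points lie below 0, with a median of -0.17 in cytosolic and -0.17 in mitochondrial members.

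Summed over members, the mean level of each class was nearly the same in both groups with all libraries. Cytosolic members summed to 31754, 30558 and 30031 CPM in the siRNA-1 libraries, against 31700, 28557 and 31853 CPM in the siCTRL libraries. The groups overlapped, and siCTRL 2 was the lowest of the 6. They took 3.06% to 3.21% of all counts in siRNA-1 and 2.87% to 3.12% in siCTRL libraries. Mitochondrial members summed to 3791, 3667 and 3661 CPM in siRNA-1, against 3863, 3411 and 3911 CPM in siCTRL libraries. On this TMM scale that overlap rested on siCTRL 2: every siRNA-1 sum was below those of siCTRL 1 and siCTRL 3. Scaled by library size alone, siRNA-1 1 (3834.5 CPM) was above siCTRL 1 (3802.2 CPM) and siCTRL 3 (3797.2 CPM). The ratio of siRNA-1 to siCTRL was 1.003 for cytosolic and 0.994 for mitochondrial sums, and 0.969 and 0.954 without siCTRL 2. By library size alone, the ratios without siCTRL 2 were 1.003 and 0.9875, so their distance below 1 depended on the scaling. Sums over members chosen with results known get no p here.

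In mitochondria the subunit ratio was higher in every siRNA-1 library. The ratio of large-subunit to small-subunit counts was 1.96, 1.89 and 1.96 in siRNA-1 and 1.74, 1.74 and 1.76 in siCTRL libraries, and the groups did not overlap, siCTRL 2 included. In the cytosolic ribosome it was 1.52, 1.51 and 1.52 in siRNA-1 and 1.48, 1.54 and 1.49 in siCTRL libraries, which overlapped. Small-subunit members of mitochondria summed to 1283, 1269 and 1235 CPM in siRNA-1 and 1412, 1246 and 1419 CPM in siCTRL libraries, where again siCTRL 2 alone overlapped. The largest differences in that sum were those of MRPS10, which averaged 55.3 CPM less in siRNA-1 than in siCTRL cultures, MRPS27 (45.0 less), MRPS16 (32.1 less) and MRPS6 (24.7 less). Among large-subunit genes, MRPL49 averaged 74.7 CPM less, MRPL45 38.4 less, MRPL15 33.9 less and MRPL3 28.4 less, and MRPL17, MRPL18 and MRPL52 averaged 38.1, 32.7 and 27.4 CPM more.

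**Figure D3:**
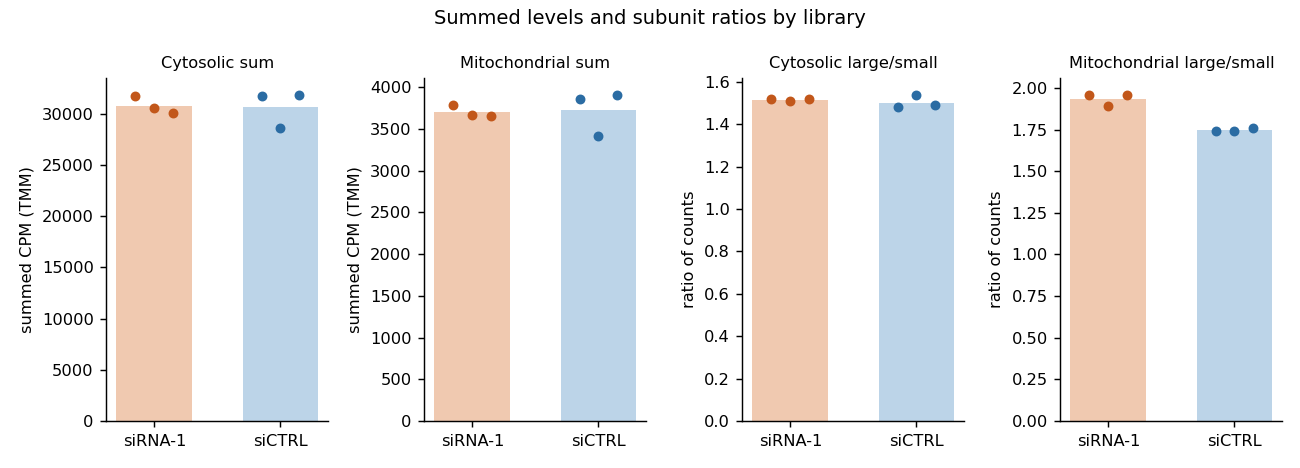
Points are libraries and bars their means (n = 3 per group), siRNA-1 left and siCTRL right, for the summed CPM of cytosolic and of mitochondrial members and for the ratio of large-subunit to small-subunit counts. Only the mitochondrial ratio has groups that do not overlap, with 1.89 to 1.96 in siRNA-1 and 1.74 to 1.76 in siCTRL libraries.

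MRPS17, an early-binding protein of the mitochondrial small subunit (ENSG00000239789, chr7:55951819-55956501), fell most among members. It had 0.91, 0.99 and 0.75 CPM in siRNA-1 and 5.48, 5.13 and 5.87 CPM in siCTRL cultures. All 3 treated cultures lay below all controls. The largest falls and rises named here and below were taken from called members whose groups did not overlap. That they do not overlap was thus set by the choice. The log2 fold change was -2.62 ± 0.22 (SE), a 6.16-fold fall (edgeR adjusted p = 8.94e-07). Its level was low for its class, 0.41 CPM per kb of exon in siRNA-1 and 2.54 in siCTRL cultures. Other genes share 31.9% of its 50-base windows, and NIPSNAP2 and a readthrough gene overlap 27% of its exons on the same strand. The part of shared reads in its counts was not tested.

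MRPL49, a large-subunit protein special to the mitochondrial ribosome (ENSG00000149792, chr11:65122183-65127371), had 25.9, 25.1 and 24.8 CPM in siRNA-1 and 100.2, 93.8 and 105.9 CPM in siCTRL cultures. The groups lay far apart, and the fold change of -1.98 ± 0.07 on the log2 scale was a 3.96-fold fall (edgeR adjusted p = 1.33e-09). Only 1.07% of its windows are shared with other genes, but FAU and SYVN1 overlap 12.2% of its exons on the opposite strand, and without a stated strand setting such reads cannot be told apart. FAU, which encodes the small-subunit protein RPS30 as a fusion and starts from the opposite strand beside MRPL49, had 184.3, 188.2 and 178.1 CPM in siRNA-1 and 166.2, 114.3 and 168.7 CPM in siCTRL cultures (log2 fold change 0.29 ± 0.12, edgeR adjusted p = 0.0433). These neighbours were called in opposite directions, but the rise of FAU was lost without siRNA-1 1, 2 or 3 (edgeR adjusted p = 0.101, 0.121 and 0.0758).

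MRPL45, which lies at the exit of the peptide tunnel and tethers the ribosome to the inner membrane (ENSG00000278845, chr17:38297023-38323218), had 25.5, 24.6 and 26.4 CPM in siRNA-1 and 66.2, 58.9 and 66.5 CPM in siCTRL cultures, without overlap. Its log2 fold change was -1.33 ± 0.07, a 2.51-fold fall (edgeR adjusted p = 3.99e-08). MRPS27, a pentatricopeptide repeat protein of the small subunit (ENSG00000113048, chr5:72219409-72320646), had 52.9, 58.2 and 56.2 CPM in siRNA-1 and 100.5, 99.6 and 102.4 CPM in siCTRL cultures. It fell by 0.85 ± 0.06 on the log2 scale (edgeR adjusted p = 2.29e-07), and its controls lay close together, siCTRL 2 included.

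MRPL15 and MRPS6, homologues of bacterial ribosomal proteins, also fell. MRPL15 had 48.6, 42.3 and 43.8 CPM in siRNA-1 and 85.3, 64.0 and 86.9 CPM in siCTRL cultures. MRPS6 had 38.7, 42.8 and 37.9 CPM in siRNA-1 and 70.7, 56.8 and 66.0 CPM in siCTRL cultures. In both, siCTRL 2 was the lowest control and still above every treated culture. Their log2 fold changes were -0.81 ± 0.11 for MRPL15 and -0.70 ± 0.09 for MRPS6 (edgeR adjusted p = 3.91e-05 and 2.48e-05). The other 12 falls ran from -0.55 in MRPL3 to -0.21 in MRPL19. Other genes share 29.3% of the windows of MRPS6 and 16.9% of those of MRPL45, and none of those of MRPL15. In MRPS18A and MRPL53 the groups overlapped through siCTRL 2.

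The largest rise was that of MRPL23, a protein at the peptide tunnel exit, with 49.0, 47.0 and 44.2 CPM in siRNA-1 and 28.3, 23.6 and 27.9 CPM in siCTRL cultures. It did not overlap and rose 1.75-fold (log2 fold change 0.81 ± 0.09, edgeR adjusted p = 6.24e-06). MRPL18, a large-subunit protein, had 87.3, 83.4 and 86.1 CPM in siRNA-1 and 53.8, 48.9 and 55.9 CPM in siCTRL cultures, and rose 1.62-fold (0.69 ± 0.07, edgeR adjusted p = 2.56e-06). The chaperonin gene TCP1, which starts 63 bases away on the opposite strand, rose with it (0.50, edgeR adjusted p = 3.31e-06). MRPL52, a large-subunit protein, had 78.0, 74.6 and 74.4 CPM in siRNA-1 and 54.0, 41.1 and 49.9 CPM in siCTRL cultures, a rise of 0.64 ± 0.09 (edgeR adjusted p = 4.93e-05), while its divergent neighbour SLC7A7, an amino acid transporter gene, fell (-2.49, edgeR adjusted p = 2.36e-05). Neighbours were called either with or against a member.

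MRPS12, the decoding-centre protein of the small subunit, had 62.6, 59.6 and 55.7 CPM in siRNA-1 and 40.2, 33.6 and 44.5 CPM in siCTRL cultures. MRPL41 had 78.9, 72.8 and 71.9 CPM in siRNA-1 and 55.2, 37.2 and 58.6 CPM in siCTRL cultures. MRPL17 had 125.2, 122.5 and 123.1 CPM in siRNA-1 and 80.5, 83.7 and 92.4 CPM in siCTRL cultures. All 3 rose without overlap, by 0.59 ± 0.09, 0.56 ± 0.13 and 0.53 ± 0.06 on the log2 scale in that order (edgeR adjusted p = 0.000181, 0.00233 and 1.51e-05). Of these 3, MRPL41 depended most on siCTRL 2, without which its log2 fold change was 0.38. SARS2 overlaps 16.3% of the exons of MRPS12 on the other strand.

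**Figure D4:**
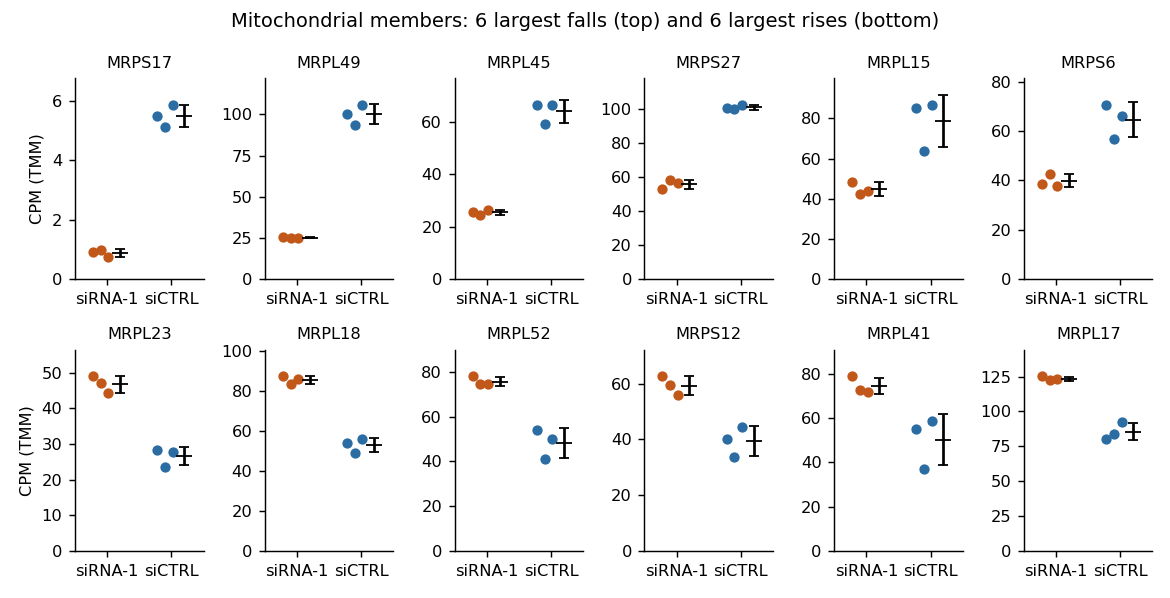
CPM (TMM-scaled, linear axes from 0) of 12 mitochondrial ribosomal protein genes, siRNA-1 left and siCTRL right; points are libraries, and the bar beside them is the mean ± SD (n = 3). The 6 genes with the largest falls are above and the 6 with the largest rises below. They were taken from called members whose groups did not overlap, so the gap between the groups of points was set by that choice.

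Among cytosolic members RPL14, a large-subunit protein (ENSG00000188846, chr3:40457292-40468587), fell most. It had 219.2, 213.0 and 205.0 CPM in siRNA-1 and 349.2, 317.0 and 352.7 CPM in siCTRL cultures. The groups were well apart, with a log2 fold change of -0.68 ± 0.06, a 1.6-fold fall (edgeR adjusted p = 1.24e-06). RPL3, which reaches towards the peptidyl transferase centre, had 549.5, 519.2 and 530.4 CPM in siRNA-1 and 704.6, 688.4 and 721.9 CPM in siCTRL cultures. RPL10A, the protein of the mobile L1 stalk, had 490.4, 459.5 and 481.0 CPM in siRNA-1 and 648.0, 583.1 and 660.4 CPM in siCTRL cultures. Both fell without overlap, each by 0.40 on the log2 scale (SE 0.05 and 0.06, edgeR adjusted p = 2.11e-05 and 8.57e-05).

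RPS12, a small-subunit protein, had 158.8, 162.5 and 164.2 CPM in siRNA-1 and 217.5, 186.0 and 203.0 CPM in siCTRL cultures. RPL12, at the base of the stalk that binds elongation factors, had 195.7, 195.1 and 192.0 CPM in siRNA-1 and 240.7, 236.3 and 243.5 CPM in siCTRL cultures. They fell by 0.32 ± 0.06 and 0.31 ± 0.05 (edgeR adjusted p = 0.000787 and 0.000178), and RPL12 had tight controls, siCTRL 2 included. Shared windows make up 37.8% of RPL3, 44.2% of RPL10A, 25.6% of RPS12 and 56.5% of RPL12, and their values are uncertain to that extent, while RPL14 shares 5.99%. RPL32, RPL13, RPS18, RPS20, RPL10, RPS4X, RPS7 and RPS6 fell by 0.14 to 0.28. RPS6, the substrate of the S6 kinases, averaged 588.3 ± 10.8 CPM in siRNA-1 and 646.2 ± 22.4 CPM in siCTRL cultures (SD, n = 3), a log2 fold change of -0.14 (edgeR adjusted p = 0.0315). That call was lost on leaving out any library but siCTRL 2 (edgeR adjusted p = 0.0735, 0.0956 and 0.128 without siRNA-1 1, 2 and 3, and 0.104 and 0.0827 without siCTRL 1 and 3). RPL10 (-0.17) was not called without siRNA-1 2 or siRNA-1 3 (edgeR adjusted p = 0.0512 and 0.0522).

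RPL17, a protein near the tunnel exit, showed the largest cytosolic rise, with 12.9, 10.9 and 10.6 CPM in siRNA-1 and 8.97, 6.21 and 5.95 CPM in siCTRL cultures (0.69 ± 0.16, edgeR adjusted p = 0.00291). RPS26, a protein of the mRNA exit channel, had 6.85, 6.69 and 6.13 CPM in siRNA-1 and 5.00, 4.89 and 4.91 CPM in siCTRL cultures (0.41 ± 0.14, edgeR adjusted p = 0.0232). In both the groups did not overlap, but the values rested on few reads for genes of this class. Other genes share 68.8% of the 50-base windows of RPL17 and 27.2% of those of RPS26, so both values are uncertain. The call of RPS26 was lost without siRNA-1 1, siRNA-1 2, siCTRL 1 or siCTRL 3 (edgeR adjusted p = 0.0729, 0.0666, 0.0586 and 0.0525).

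Rises in genes with ample reads were smaller. RPL27, a large-subunit protein, had 665.3, 636.8 and 598.1 CPM in siRNA-1 and 541.7, 432.5 and 521.0 CPM in siCTRL cultures (0.35 ± 0.08, edgeR adjusted p = 0.00227). RPL38, needed in mice for translation of some Hox messages, had 255.5, 247.7 and 235.1 CPM in siRNA-1 and 216.8, 171.8 and 218.3 CPM in siCTRL cultures (0.28 ± 0.08, edgeR adjusted p = 0.0110). In both genes every treated culture was above every control and siCTRL 2 was the lowest control; without it their log2 fold changes were 0.24 for RPL27 and 0.16 for RPL38, each still called. The call of RPL38 was lost without siRNA-1 1 (0.26, edgeR adjusted p = 0.0507).

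**Figure D5:**
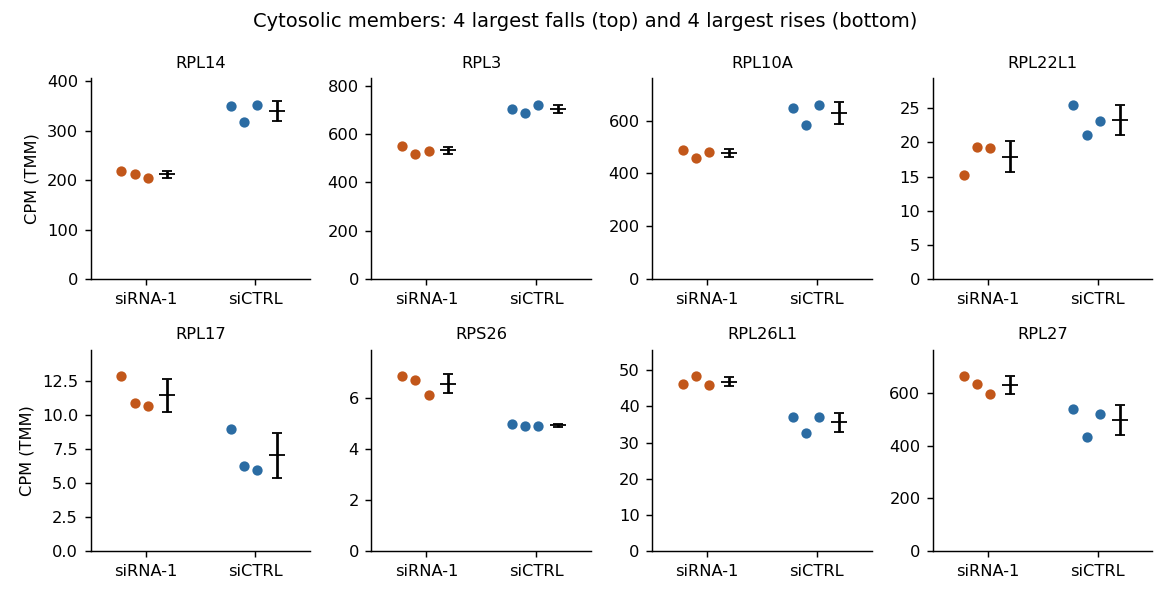
CPM (TMM-scaled, linear axes from 0) of 8 cytosolic ribosomal protein genes, siRNA-1 left and siCTRL right; points are libraries, and the bar beside them is the mean ± SD (n = 3). The 4 genes with the largest falls are above and the 4 with the largest rises below, from RPL14 at -0.68 to RPL17 at 0.69 on the log2 scale. They were taken from called members whose groups did not overlap.

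RPL5 and RPL11, which carry the 5S ribosomal RNA into the large subunit and bind MDM2 when free, were not called with all libraries. RPL5 averaged 651.4 ± 16.6 CPM in siRNA-1 and 675.7 ± 18.3 CPM in siCTRL cultures (log2 fold change -0.05, edgeR adjusted p = 0.365), and without siCTRL 2 it was called lower (-0.09, edgeR adjusted p = 0.0442). RPL11 averaged 614.2 ± 22.6 CPM in siRNA-1 and 566.5 ± 40.7 CPM in siCTRL cultures (0.12, edgeR adjusted p = 0.113). Of the stalk proteins, RPLP2 rose, with 398.9, 381.8 and 397.3 CPM in siRNA-1 and 339.9, 304.6 and 358.0 CPM in siCTRL cultures (0.23 ± 0.06, edgeR adjusted p = 0.00644). RPLP0 (-0.03) and RPLP1 (-0.08) were not called (edgeR adjusted p = 0.564 and 0.463). RPLP1 was at 405.8 CPM in siCTRL 2 and 534.6 and 539.9 CPM in the other controls, and without siCTRL 2 it was called lower (-0.22, edgeR adjusted p = 2.43e-06).

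Several cytosolic members are copies of another. RPL22L1, the copy of RPL22, had 15.3, 19.3 and 19.2 CPM in siRNA-1 and 25.5, 21.1 and 23.1 CPM in siCTRL cultures and fell (-0.38 ± 0.11, edgeR adjusted p = 0.0110), while RPL22 was at -0.04 and not called; without siRNA-1 1 the call of RPL22L1 was lost (-0.27, edgeR adjusted p = 0.0608). RPL26L1, the copy of RPL26, had 46.2, 48.4 and 46.0 CPM in siRNA-1 and 37.1, 32.5 and 37.1 CPM in siCTRL cultures and rose (0.40 ± 0.07, edgeR adjusted p = 0.000566), with 47.9% of its windows shared. RPL7L1, a relative of RPL7 with a part in ribosome assembly, had 652.1, 634.4 and 621.5 CPM in siRNA-1 and 556.4, 524.8 and 530.0 CPM in siCTRL cultures and rose (0.24 ± 0.05, edgeR adjusted p = 0.0011). These 3 copies were called while RPL22, RPL26 and RPL7 were not, and the difference within each pair was not tested. RPL26 averaged 9.5 CPM in siRNA-1 and 8.6 CPM in siCTRL cultures, and RPL7 112 CPM in siRNA-1 and 115 CPM in siCTRL cultures. Both thus lay below their copies, and the part of reads shared with other genes in this was not tested. RPL39L and RPS27L were not called with all libraries, nor were RPL39 and RPS27; without siCTRL 2, RPS27L was called lower (-0.24, edgeR adjusted p = 5.02e-05). RPL3L, the muscle copy of RPL3, had 0 counts in each siRNA-1 library and 1 to 3 in siCTRL libraries, and RPL10L, the testis copy of RPL10, had 0 in all.

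Per kb of exon the cytosolic genes were the higher, with a median of 93.3 CPM per kb in siRNA-1 and 94.3 in siCTRL cultures, against 15.4 in siRNA-1 and 15 in siCTRL cultures for mitochondrial genes. RPS18 led with 435.0 in siRNA-1 and 497.6 in siCTRL cultures. MRPL14 led the mitochondrial genes with 155.5 in siRNA-1 and 150.2 CPM per kb in siCTRL cultures. In siCTRL cultures 14 cytosolic and 5 mitochondrial members lay over 10-fold below the median of their class, among them RPL9, RPL17, RPL21, RPL26, RPS10 and RPS26. In 11 of these 14 and 3 of these 5, at least 10% of windows were shared with other genes or 10% of exons overlapped on the same strand; among the other members this held for 44 of 70 and 10 of 73. Named pseudogenes exist for 77 of the 84 cytosolic and 34 of the 78 mitochondrial members. The sources used here do not say how reads with several matches were counted, and their part in these levels was not tested.

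Some ribosomal proteins carry other names. Of the cytosolic ones, FAU and RPL36AL (0.20 ± 0.07, edgeR adjusted p = 0.0226) rose, and RACK1, the signalling scaffold on the small subunit, fell (-0.17 ± 0.06, edgeR adjusted p = 0.0321). RACK1 was highest in siCTRL 2, with 934.5, 864.9 and 886.5 CPM in siRNA-1 and 946.4, 1100 and 976.9 CPM in siCTRL cultures. It was not called without siRNA-1 2 or 3 (edgeR adjusted p = 0.137 and 0.105), nor RPL36AL without siRNA-1 1 or 3 (0.0517 and 0.0957). Of 6 mitochondrial ones, 5 rose and 0 fell, against 31.5% of all genes higher and 31.0% lower: DAP3 by 0.31, AURKAIP1 by 0.36, GADD45GIP1 by 0.36, PTCD3 by 0.19 and MRPL58, a peptidyl-tRNA hydrolase that is also among the 78 mitochondrial members, by 0.46 (edgeR adjusted p between 0.000153 and 0.0121). CHCHD1 was at 0.18 (edgeR adjusted p = 0.0938), and was called higher without siCTRL 3 (0.24, edgeR adjusted p = 0.0402). PTCD3 lost its call without siRNA-1 1 (edgeR adjusted p = 0.0644).

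Other messages with a TOP sequence were tested in 16 of 17 cases; 0 rose and 4 fell (25% called, against 62.5% of all genes), with a median log2 fold change of -0.01, and without siCTRL 2, 3 rose and 5 fell (50% called, against 68.7%). EEF1A1, the factor that brings aminoacyl-tRNA to the ribosome, had 3849, 3653 and 3564 CPM in siRNA-1 and 5856, 5026 and 5790 CPM in siCTRL cultures. PABPC1, the cytoplasmic poly(A)-binding protein, had 752.6, 803.8 and 758.9 CPM in siRNA-1 and 1080, 1088 and 1069 CPM in siCTRL cultures. Both fell without overlap, by 0.59 ± 0.06 and 0.48 ± 0.05 (edgeR adjusted p = 7.94e-06 and 4.64e-06). Among cytosolic ribosomal genes only RPL14 fell by more than either.

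Genes that control ribosomal protein synthesis changed in 9 of 12 cases, 4 up and 5 down (75% called, against 62.5% of all genes; median -0.09). EIF4EBP2, which blocks the cap-binding factor when mTOR is inactive, had 393.0, 418.5 and 368.3 CPM in siRNA-1 and 184.4, 144.1 and 174.3 CPM in siCTRL cultures (1.23 ± 0.08, edgeR adjusted p = 2.15e-07). RPS6KB2, the gene of an S6 kinase, had 33.4, 29.9 and 30.5 CPM in siRNA-1 and 58.0, 56.1 and 58.7 CPM in siCTRL cultures (-0.88 ± 0.07, edgeR adjusted p = 5.87e-07). All other called genes of this list were EIF4EBP1 (-0.72), MYC (-0.54), RPS6KB1 (-0.39) and RPTOR (-0.23), which fell, and LARP1 (0.39), TSC1 (0.39) and MTOR (0.35), which rose. Their edgeR adjusted p lay between 6.05e-06 and 0.0248. Of 8 dedicated chaperones, which escort new ribosomal proteins to the nucleus, 6 rose and 0 fell (median 0.31), against 31.5% of all genes higher and 31.0% lower (median 0.01). BCCIP, the chaperone of RPL23, rose by 0.63 ± 0.07 and TSR2, the chaperone of RPS26, by 0.52 ± 0.07 (edgeR adjusted p = 5.89e-06 and 2.99e-05).

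In ribosome-associated quality control, which clears stalled ribosomes, 10 of 17 genes rose and 3 fell (76.5% called, against 62.5% of all genes, 31.5% higher and 31.0% lower; median 0.26). ABCE1, which splits ribosomes, rose by 0.60 ± 0.06 and TCF25, of the complex that tags stalled peptides, was at -0.62 ± 0.08 (edgeR adjusted p = 3.65e-06 and 2.77e-05). The UFM1 pathway modifies RPL26 on ribosomes at the endoplasmic reticulum; 3 of its 9 genes rose and 2 fell (55.6% called, against 62.5% of all genes; median 0.05). The modifier UFM1 had 112.0, 111.1 and 120.1 CPM in siRNA-1 and 73.0, 73.2 and 79.7 CPM in siCTRL cultures (0.60 ± 0.06, edgeR adjusted p = 4.94e-06), and its ligase UFL1 had 11.5, 13.3 and 13.2 CPM in siRNA-1 and 25.2, 27.6 and 28.0 CPM in siCTRL cultures (-1.09 ± 0.10, edgeR adjusted p = 1.51e-06). The modifier was thus higher and the ligase lower, both without overlap. Without siCTRL 2, 12 quality control genes rose and 3 fell (88.2% called, against 68.7% of all genes). Of the UFM1 pathway 3 rose and 2 fell without it (55.6% called).

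In mitochondria 5 of 14 translation factors rose and 3 fell (57.1% called, median 0.14), and 6 of 25 ribosome assembly factors rose and 7 fell (52.0% called, median -0.04), against 62.5% of all genes called. LRPPRC, which stabilises mitochondrial messages, rose by 0.29 ± 0.06 and MTRFR, which rescues stalled mitochondrial ribosomes, by 0.35 ± 0.07 (edgeR adjusted p = 0.000703 and 0.0008). NSUN4, which methylates the small-subunit RNA, had 11.9, 11.4 and 11.9 CPM in siRNA-1 and 21.9, 21.8 and 22.3 CPM in siCTRL cultures (-0.91 ± 0.09, edgeR adjusted p = 3.36e-06). DHX30, an RNA helicase of mitochondrial assembly, had 168.3, 172.6 and 166.2 CPM in siRNA-1 and 119.1, 112.1 and 118.6 CPM in siCTRL cultures (0.54 ± 0.05, edgeR adjusted p = 3.95e-06). Without siCTRL 2, 5 assembly factors rose and 10 fell (60.0% called, against 68.7% of all genes, 34.5% higher and 34.3% lower). Of the translation factors 5 rose and 3 fell without it (57.1% called).

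Members were also read for the sequence GCTCACT in their 3′ untranslated regions (UTRs, gene strand only), which earlier work on these same counts had picked for its presence in genes that fell; its counts here are a description and no support for it. It was present in 8 of 18 mitochondrial members that fell (44.4%), in 2 of 23 that rose (8.70%) and in 4 of 35 that were not called (11.4%), against 20.5% of 12275 tested genes with a scanned UTR and 31.1% of those that fell. In cytosolic members it was in 3 of 10 that fell, 5 of 15 that rose and 12 of 46 that were not called. Of all scanned genes that rose 12.8% held it, and of those not called 18.3%. A gene counted as holding it if any annotated coding transcript with a UTR of at least 50 bases did. Which of these transcripts the cells expressed was not tested. By this count, cytosolic members that rose held it more often than all genes that rose, and no less often than cytosolic members that fell. The sequence was present in MRPS17, MRPL49, MRPS27, MRPS6 and RPL14, which fell, and also in MRPL44, which was not called (0.10). Members that rose and held it were MRPL42, MRPS25, RPL15, RPL27A, RPL38, RPS24 and RPS26. MRPL45, the third largest fall, was not among the members holding the sequence.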

How the data were processed

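Read counts per Ensembl gene were deposited by the authors for 6 libraries of total RNA (NEBNext Ultra kit, per the labels), raw and made with HTSeq per the submitters' processing notes, which also name Trimmomatic, STAR, kallisto and hg38 without versions; the sources used here do not give the annotation release, the strand setting or the treatment of multiply aligned reads. Symbols and positions came from GENCODE 29 (GRCh38). edgeR 4.0.16 in R 4.3.3 kept 12440 genes (filterByExpr, minimum count 10, minimum total 15), scaled by TMM (factors 0.972 to 1.02) and tested group alone by the two-sided quasi-likelihood F test, adjusted by Benjamini-Hochberg over these genes; SE is the log2 fold change over the square root of F. CPM are TMM-scaled. The floor of 3 counts covers counting error only. Members and lists were chosen with earlier results of these data known, so lists were counted and not tested. Named genes are, per class, the 6 largest rises and falls among called members whose log2 CPM averaged 1 or more and whose groups did not overlap, with the 5S, stalk, RPS6 and copied genes, both lists of proteins with other names and the 2 smallest adjusted p of each other list; further members named were chosen after their values were seen. Shared sequence means 50-base transcript windows found in another gene's transcripts, and a divergent neighbour starts within 1000 bases. Alternatives were DESeq2 1.42.0 size factors and Wald test, library size alone, TMM without members, other filters, limma-voom 3.58.1, a replicate block, each library left out and a threshold of 0.01; genes of matched level and subunits by position were added after seeing the data. The fit was also run on simulated counts with far fewer changed genes than were called here and no outlying library. That run cannot show how the calls behave in these data. Some genes and sequences that meet these rules are not reported here.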

Additional observations from a re-analysis of the deposited data

How the results depend on the processing

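Named genes kept their side of the threshold in 898 of 943 recomputations, lost a call in 38, gained one in 7 and reversed in 0. Many of them were chosen for their call with all libraries, and the recomputations reuse those libraries. The share kept was thus partly set by the choice and does not stand for the class, whose counts moved more. At a threshold of 0.01, 11 cytosolic members were higher and 8 lower (small subunit 3 and 1), and 13 mitochondrial members were higher (large subunit 10, small subunit 3). Of all genes, 3096 were then higher and 3110 lower. With library size alone the mitochondrial median log2 fold change was 0.125 (large 0.143, small 0.117), 3 cytosolic small-subunit members were lower, the ratio of summed mitochondrial CPM was 1.021 in place of 0.994, and RPL11 and CHCHD1 were called higher. With a mean of at least 100 counts that median was 0.051 (large 0.0705, small 0.0336). The cause was not tested.

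Leaving out 1 library at a time gave 11 to 16 cytosolic members higher and 8 to 26 lower (median -0.0404 to 0.0634), 13 to 21 mitochondrial members higher (median 0.00909 to 0.116), 7 to 14 cytosolic large-subunit members lower (median -0.00335 to 0.0853), 2 to 5 cytosolic small-subunit members higher and 1 to 12 lower (median -0.0723 to 0.0319), 10 to 16 mitochondrial large-subunit members higher (median 0.00909 to 0.136), and 3 to 6 mitochondrial small-subunit members higher (median 0.0191 to 0.0996). Of all genes, the same fits called 3424 to 4329 higher and 3413 to 4306 lower. Without siCTRL 2 the summed CPM ratios were 0.9687 for cytosolic and 0.9535 for mitochondrial members, and 1.003 and 0.9875 by library size alone. With the replicate number as a block, 18 cytosolic members were higher and 12 lower and 22 mitochondrial members higher and 17 lower, and RPS6 and RACK1 were not called (edgeR adjusted p = 0.0657 and 0.063). Deviations of same-numbered libraries correlated at 0.0854, -0.0829 and -0.0901. With 3 libraries per group, these values do not show that the numbers pair the samples and cannot exclude it. The Wald test of DESeq2 called 15 cytosolic members higher and 13 lower and 18 mitochondrial members higher and 17 lower, and did not call RPS26 (adjusted p = 0.0903). Members near the floor, such as RPL36A and MRPS24, were left out by the count filter. The parts of depth and of reads shared with other genes in their low counts were not tested.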
